A study of Arabidopsis thaliana with 12 samples.

Results

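The question addressed here is whether the rosette transcriptome of Arabidopsis responded differently to the microbiota of 1 soil than to that of another. All 12 RNA-seq libraries of the experiment were used, as 4 groups of 3. Col-0 plants were raised in FlowPots, peat-filled pots that stay sterile until they are inoculated. HO-MSU and HO-Malaka plants (holoxenic, HO) received a live slurry of MSU soil or of Malaka soil. AX-MSU and AX-Malaka plants (axenic, AX) received the slurry of the same soil after autoclaving, so that each AX group still carried the dead material and solutes of its soil. The plants had an age of 21 days, and each library pooled 8 rosettes from 4 FlowPots that shared 1 microbox. P-values therefore measure the spread between such pools. For every gene the response to the live community was the log2 fold change (log2FC) of HO over AX plants, and the interaction was the response with MSU minus the response with Malaka. A positive interaction means a response that was more positive, or less negative, with MSU. The members described below are the 49 genes, of 17588 tested and 33610 in the count table, whose interaction had a Benjamini-Hochberg FDR under 0.05 in edgeR.

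Leaves carry out growth, photosynthesis and defence at the same time, and bacteria and fungi on and in the plant are sensed through cell-surface receptors that start pattern-triggered immunity. Soil communities differ in their members, and a soil slurry also brings sugars, nitrogen, sulfur and other nutrients. The leaf genes described below include dehydrins and other proteins of cold and water stress, and genes of sulfate assimilation. Others are known to rise in darkness or when sugar runs short. An interaction can come from any of the 4 groups, including the axenic ones, so each gene is described below by the group whose level lay apart from the other 3.

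The libraries held between 10211008 and 22710086 counts, of which nuclear ribosomal RNA and organelle genes took from 65.3% to 74.8%. HO-Malaka replicate 2 stood apart from the rest, with the highest share of such counts (74.8%, the next being 72.6%) and the lowest TMM normalization factor (0.788, against 0.881 to 1.12 in the other libraries). Leaf identity was checked with 22 nuclear genes of light harvesting and Rubisco, whose summed level lay between 30202 and 34101 CPM, the counts of a gene scaled to a common library size, in all libraries. Of 14 root markers, 1 passed the filter on low counts and 2 were at 0 in every library, with sums between 107 and 169 CPM. Root marker sums were 107 to 129 CPM in AX-Malaka, 123 to 159 in HO-Malaka, 118 to 139 in AX-MSU and 135 to 169 in HO-MSU libraries. Of 8 flower markers none passed it, and their sums did not exceed 1.92 CPM. The part of these markers in the results below was not tested. In bulk tissue, fewer cells of a type and less RNA per cell cannot be told apart.

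Few genes had a response that differed between the soils beyond the spread of the libraries. Of the 17588 genes tested, 49 (0.279%) had an interaction, 26 of them positive (0.148%) and 23 negative (0.131%). At an unadjusted p under 0.05 there were 1427 genes, 8.11% of those tested. For comparison, 1157 genes (6.58%) differed between HO-MSU and AX-MSU plants and 771 (4.38%) between HO-Malaka and AX-Malaka plants. Between the soils, 114 genes (0.648%) differed in AX plants and 51 (0.29%) in HO plants. The interaction is a difference between such differences and is measured less exactly. Its median standard error was 0.29, against 0.20 and 0.21 for the responses with MSU and Malaka. It was 0.21 for the soil difference in AX and 0.20 in HO plants. The counts of calls therefore do not rank the size of these effects. In a split of the variance of log2 CPM over all genes tested, treatment took 27.7%, soil 8.83%, their interaction 8.15% and the spread between libraries of a group 55.3%, or 6.91% per degree of freedom. The interaction, with 1 degree of freedom, was therefore little above the spread between replicates over the transcriptome as a whole. The root-mean-square difference between libraries of HO-Malaka and AX-Malaka was 1.28 times that between libraries of the same group, and for MSU it was 1.2 times. Between the soils it was 1.06 times in AX plants and 1.02 times in HO plants.

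The 49 genes are described next by their response with each soil. The estimated responses had opposite signs with MSU and with Malaka at 39 of the 49 genes, which the interaction itself favours, and at 38.8% of all genes tested. Only 3 genes had a called change of opposite direction with both soils. AT3G19680 and AT2G47440 rose with MSU and fell with Malaka, and AT1G75490 fell with MSU and rose with Malaka. Of the other 22 negative genes, 17 fell with MSU without a called change with Malaka, 3 rose with Malaka without one with MSU, 1 rose with both soils and 1 passed in neither. Of the positive genes, 11 rose with MSU alone, 9 fell with Malaka alone, 3 rose with both soils and 1 passed in neither. The plot of both responses shows the positive genes above the diagonal of equal response and the negative genes under it.

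**Figure D1:**
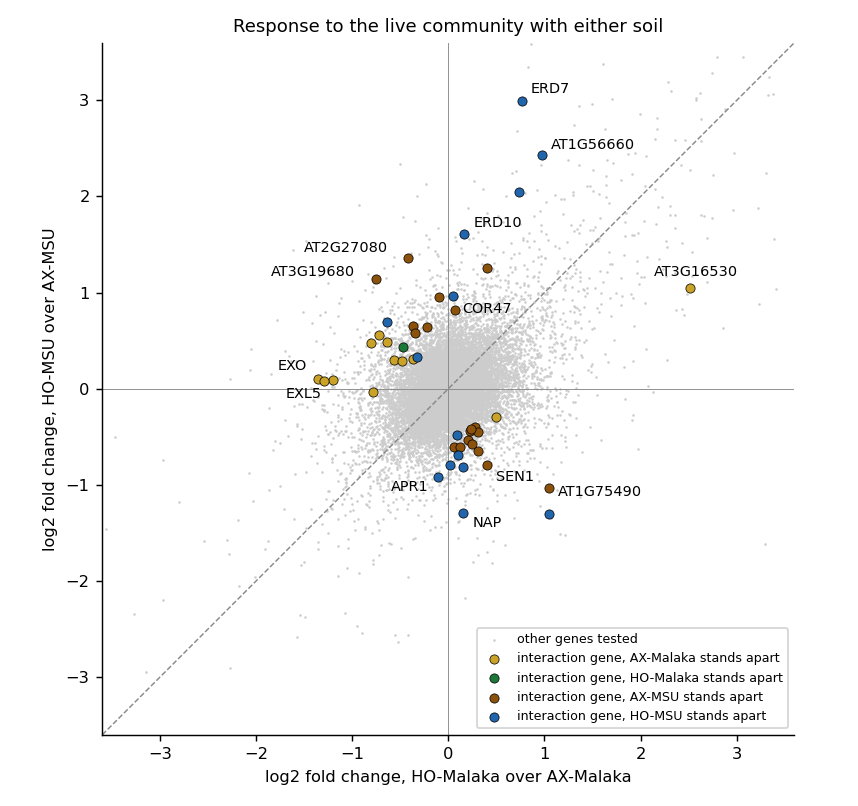
Log2FC of HO over AX plants with Malaka (horizontal) and with MSU (vertical) for the genes tested (grey) and for 46 of the 49 interaction genes, coloured by the group that lay apart. Genes on the dashed line responded equally with both soils, and most coloured points lie in the quadrants of opposite sign. GRP9, AT3G28550 and AT2G05510, with almost no counts in at least 1 group, are left out, as are genes beyond the axes.

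With all 12 libraries, the group that lay apart was most often AX-MSU. For each gene this is the group whose removal leaves the smallest range among the other 3 group means of log2 CPM. AX-MSU lay apart at 20 of the 49 genes (40.8%) against 21.5% of all genes tested, AX-Malaka at 13 (26.5% against 29.4%), HO-MSU at 14 (28.6% against 29.0%) and HO-Malaka at 2 (4.08% against 20%). Together the axenic groups accounted for 33 of the 49 genes, or 67.3%, against 51.0% of all genes. The share of AX-Malaka alone was below that over all genes. At 36 of the 49 genes the 3 libraries of that group lay all above or all below the other 9, which was so at 10.0% of all genes tested. The genes were chosen for their interaction in these same libraries, which favours such separation, so nothing is read from this difference. AX-Malaka was mostly high where it lay apart (10 of 13), AX-MSU was high at 12 and low at 8, and HO-MSU was high at 7 and low at 7.
Single libraries changed the order of the groups. When replicate 2 of HO-Malaka was left out, 191 genes had an interaction, all 49 among them, and HO-Malaka lay apart at 73, HO-MSU at 45, AX-Malaka at 38 and AX-MSU at 35. Of the 73 genes of HO-Malaka, 32 were organelle, ribosomal RNA or small nuclear RNA genes. The axenic groups together lay apart at 73 of the 191 genes and the holoxenic groups at 118. AX-MSU also lost its lead when replicate 2 of AX-Malaka was left out (11 genes for AX-Malaka and 10 for AX-MSU) and with replicate 1 of HO-Malaka left out (14 for HO-MSU and 13 for AX-MSU). It shared the lead with AX-Malaka, at 12 genes each, when replicate 1 of AX-Malaka was left out, and with AX-Malaka and HO-MSU, at 7 genes each, when replicate 1 of HO-MSU was. With no filter on low counts AX-Malaka lay apart at 59 genes and AX-MSU at 52. Over the 49 genes alone, AX-MSU lay apart at 18 to 22 and HO-Malaka at 1 to 5 whichever library was left out. These genes were chosen with all libraries, which favours such a narrow range.

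**Figure D2:**
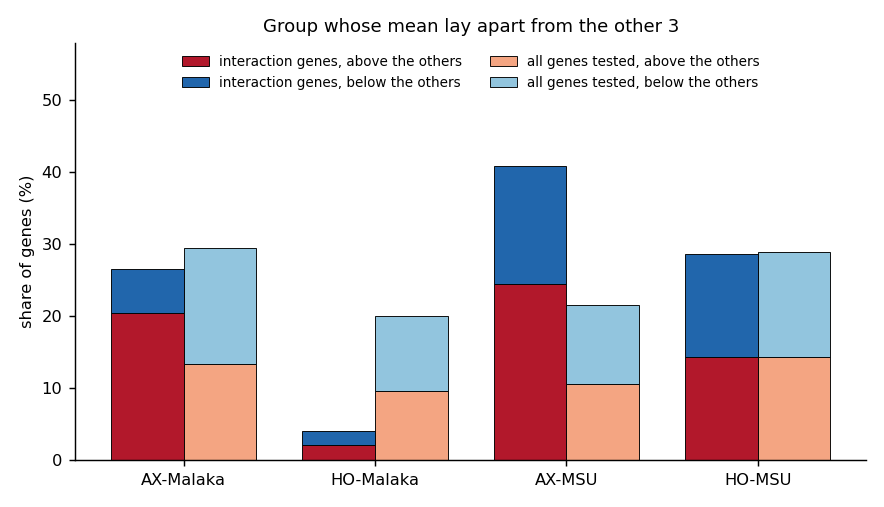
Share of genes (%) at which each group lay apart from the other 3, for the 49 interaction genes (dark bars) and for all 17588 genes tested (pale bars), stacked as above or below the others. AX-MSU accounts for 40.8% of the interaction genes and 21.5% of all genes, and HO-Malaka for 4.08% and 20%.

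AX-Malaka plants were high at 10 of the 49 genes, among them EXO and its relative EXL5. EXO (EXORDIUM, AT4G08950), an extracellular protein that promotes leaf cell expansion and responds to brassinosteroids, had 39.4, 25.9 and 29.9 CPM in the AX-Malaka libraries and between 9.48 and 13.9 CPM in the other 9. No library of another group reached the AX-Malaka libraries. Its response was -1.36 with Malaka and 0.10 with MSU, and its interaction 1.46 (standard error 0.22, adjusted p = 0.000451 from edgeR). Its relative EXL5 (EXORDIUM LIKE 5, AT2G17230) showed the same pattern, with 58.1, 45.4 and 56.4 CPM in AX-Malaka libraries and at most 30.2 CPM elsewhere, and an interaction of 1.29 with a standard error of 0.18 (edgeR, adjusted p = 0.000308).
AT2G47440, which encodes a tetratricopeptide repeat protein, had 66.0, 58.2 and 61.6 CPM in AX-Malaka plants, 39.0, 32.0 and 34.9 in HO-Malaka, 32.6, 32.0 and 40.5 in AX-MSU and 44.9, 50.7 and 49.8 in HO-MSU plants. It was thus highest in axenic plants with Malaka but lower in axenic than in holoxenic plants with MSU, with an interaction of 1.28 ± 0.15 (SE, edgeR adjusted p = 1.07e-05). PATL2, a patellin of membrane trafficking, had 57.6 to 68.6 CPM in AX-Malaka plants and 31.9 to 48.6 elsewhere. AT1G61100, annotated as a disease resistance protein of the TIR class, had 53.8 to 64.4 CPM there and 32.5 to 49.2 elsewhere. Their interactions were 0.87 and 0.78, with adjusted p of 0.00202 and 0.0102 from edgeR, and the AX-Malaka libraries again lay above all others. AT1G61100 did not pass when replicate 3 of AX-Malaka (0.73) or replicate 2 of AX-MSU (0.68) was left out. AGP17, an arabinogalactan protein of the cell surface that was chosen after its values were seen, had 26.8 to 33.9 CPM in AX-Malaka plants and 15.6 to 20.1 in the other libraries, which did not overlap.

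Another 8 genes were low in AX-MSU plants. All 8 rose with the live MSU community and none had a called rise with Malaka. Their promoters are shown for the pair with the smallest p, as the 250 bases before the annotated start of the gene on its own strand, from the RefSeq sequence TAIR10.1. The stretches are chr3:6840031-6840280 (plus strand) for AT3G19680 and chr2:11563683-11563932 (plus strand) for AT2G27080. Capitals mark the W-box letters TTGACC and TTGACT on either strand, which WRKY transcription factors of defence are known to bind.
AT3G19680: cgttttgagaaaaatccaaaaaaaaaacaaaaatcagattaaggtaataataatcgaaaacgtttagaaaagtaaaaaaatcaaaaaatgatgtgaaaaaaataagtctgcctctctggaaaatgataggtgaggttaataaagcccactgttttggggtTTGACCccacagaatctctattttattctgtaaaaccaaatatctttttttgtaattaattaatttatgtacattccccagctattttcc
AT2G27080: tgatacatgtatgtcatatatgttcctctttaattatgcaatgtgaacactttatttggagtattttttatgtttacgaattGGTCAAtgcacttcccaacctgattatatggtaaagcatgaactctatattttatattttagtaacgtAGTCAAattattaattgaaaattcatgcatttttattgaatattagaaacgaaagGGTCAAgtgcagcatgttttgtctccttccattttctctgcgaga
AT3G19680, a gene of unknown function that encodes a DUF1005 protein, had the smallest p of the interaction. It had 27.2, 27.3 and 29.7 CPM in AX-Malaka plants, 18.6, 14.5 and 16.4 in HO-Malaka, 12.5, 7.32 and 14 in AX-MSU and 21.9, 25.7 and 27.0 in HO-MSU plants. The AX-MSU libraries were the lowest 3 of the 12. The live community raised it with MSU (log2FC 1.14) and lowered it with Malaka (-0.76), an interaction of 1.89 ± 0.21 (SE, edgeR adjusted p = 8.60e-06). It shares 101 of 1856 exonic bases with AT3G19690, which is read in the opposite direction. AT2G27080, of the family of late embryogenesis abundant hydroxyproline-rich glycoproteins, had 2.80, 4.28 and 4.86 CPM in AX-MSU plants and between 8.08 and 12.8 CPM in the other 9 libraries. No AX-MSU library reached the others, and the interaction was 1.78 (standard error 0.24, adjusted p = 0.000111 from edgeR). The promoter printed above holds a single W-box match for AT3G19680 and 3 for AT2G27080.
MYBR1 (also MYB44, AT5G67300), a transcription factor of abscisic acid and stress responses, had 22.7, 19.7 and 25.8 CPM in AX-MSU plants and 29.5 to 46.9 CPM elsewhere. Its interaction was 1.02 (standard error 0.16, adjusted p = 0.000617 from edgeR). Of its 1985 exonic bases, 187 overlap a neighbouring gene on its own strand and 703 overlap AT5G67310 on the other strand. IP5PII, a phosphatase of inositol phosphates, had 10.4 to 13.8 CPM in AX-MSU plants and 16.5 to 27.5 elsewhere, with an interaction of 1.06 (adjusted p = 0.00288 from edgeR). Both genes rose with MSU, by log2FC of 0.66 and 0.95, and neither had a called change with Malaka (-0.36 and -0.10). SOBIR1, the co-receptor kinase of receptor-like proteins, belongs to the same set with 10.8 to 13.1 CPM in AX-MSU plants and 14.9 to 33.6 elsewhere, but shares 478 bases with an antisense gene. It was chosen after its values were seen.

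In the opposite direction, AX-MSU plants were high at 12 of the 49 genes, among them SEN1. SEN1 (also DIN1, AT4G35770), which is induced in the dark and in senescing leaves, had 66.0, 66.1 and 48.7 CPM in AX-MSU plants. It had 23.2, 28.3 and 26.2 CPM in AX-Malaka, 41.3, 28.1 and 32.7 in HO-Malaka and 36.2, 32.7 and 35.7 in HO-MSU plants. The AX-MSU libraries lay above all others, while the holoxenic groups overlapped. The response was -0.79 with MSU and 0.40 with Malaka, the latter short of the threshold, and the interaction was -1.20 (standard error 0.18, adjusted p = 0.000449 from edgeR). The zinc finger gene AT5G22920 followed with 54.9 to 61.0 CPM in AX-MSU plants and 39.8 to 53.6 elsewhere (interaction -0.73, adjusted p = 0.00904 from edgeR). The CCCH-type zinc finger gene ATCTH had 99.6, 103 and 98.2 CPM in AX-MSU plants and 61.7 to 82.4 elsewhere (interaction -0.66, adjusted p = 0.0406 from edgeR).
The transcription factor gene NAC083 had 37.8 to 44.5 CPM in AX-MSU plants and 24.7 to 33.9 elsewhere. The DnaJ chaperone gene J11 (55.8 to 64.7 CPM in AX-MSU against 40.9 to 58.1 elsewhere) and BT1, of the BTB and TAZ domain proteins (24.9 to 31.4 against 16.9 to 25.1), overlapped with other groups. Their interactions were -0.68, -0.66 and -0.82, with adjusted p of 0.0285, 0.0241 and 0.0285 from edgeR. AT1G75490, annotated as an integrase-type DNA-binding protein, was high in 2 groups. It had 4.29, 4.21 and 3.88 CPM in AX-MSU and 4.13, 3.01 and 3.67 in HO-Malaka plants, against 1.92, 1.57 and 1.82 in AX-Malaka and 2.63, 1.52 and 1.96 in HO-MSU plants. These values do not overlap between the high and the low pair of groups, and the interaction was -2.08 (standard error 0.36, adjusted p = 0.00320 from edgeR). The calls of ATCTH, NAC083, J11 and BT1 were lost without 9, 7, 6 and 8 of the 12 libraries taken 1 at a time and that of AT5G22920 when replicate 3 of AX-Malaka or replicate 2 of AX-MSU was left out. Their interactions then lay between -0.58 and -0.84.
In the list of genes of sugar starvation and darkness, SEN1 alone had a called interaction. Of 18 listed genes 16 were tested. At 13 of the 16 the interaction was negative, with a median of -0.20 beside -0.01 over all genes tested. In AX plants 4 of the 16, SEN1 among them, were called higher with MSU than with Malaka, beside 47 of all 17588 genes tested. With MSU 5 of the 16 were called lower and with Malaka 2, beside 577 and 333 of all genes tested. AX-MSU lay apart at 11 of the 16, beside 21.5% of all genes tested. ASN1, an asparagine synthetase that darkness induces, had a mean of 136 CPM in AX-MSU and 116 in AX-Malaka plants against 88.8 and 83.9 in the holoxenic groups, and an interaction of -0.14 (adjusted p = 0.839 from edgeR). It fell with MSU (-0.61) and with Malaka (-0.47). When libraries were scaled by total counts, which moved the median of all genes to -0.13, the median of the list was -0.34.

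**Figure D3:**
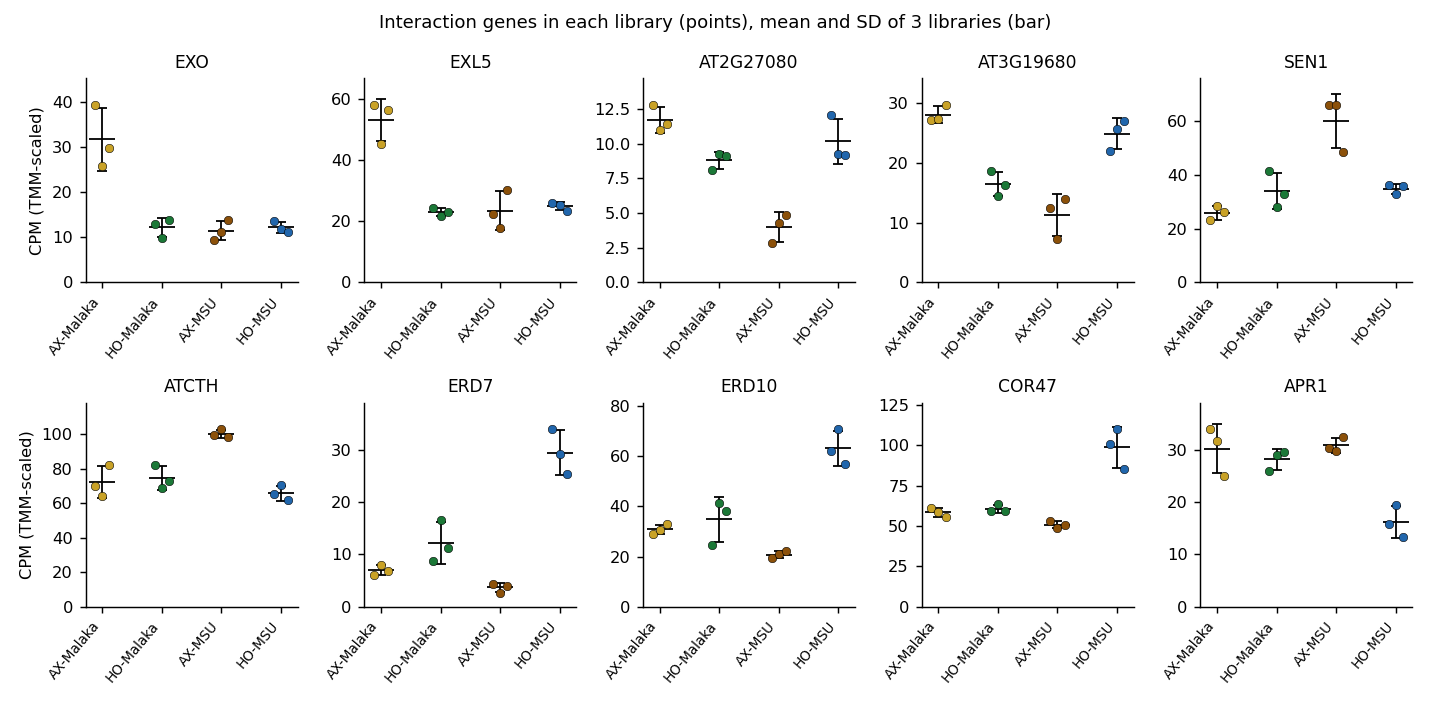
Level of 10 interaction genes in CPM after TMM scaling, 1 point per library, with the mean and SD of each group of 3 as a bar. EXO and EXL5 are high in AX-Malaka plants, AT2G27080 and AT3G19680 low and SEN1 and ATCTH high in AX-MSU plants, and ERD7, ERD10 and COR47 high and APR1 low in HO-MSU plants.

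Genes of dehydration and cold were high in HO-MSU plants. ERD7 (EARLY-RESPONSIVE TO DEHYDRATION 7, AT2G17840) had 33.9, 29.1 and 25.3 CPM in HO-MSU plants, 8.66, 16.5 and 11.3 in HO-Malaka, 5.99, 7.99 and 6.87 in AX-Malaka and 4.35, 2.62 and 4.02 in AX-MSU plants. It rose with both communities, by a log2FC of 3.00 with MSU and 0.77 with Malaka, and no library of another group reached the HO-MSU libraries. The interaction was 2.23 (standard error 0.27, adjusted p = 3.33e-05 from edgeR). The dehydrins are hydrophilic proteins that accumulate when cells lose water. The dehydrin gene ERD10 (AT1G20450) had 62.1, 70.8 and 56.9 CPM in HO-MSU plants and 19.3 to 41.6 CPM in the other 9 libraries. Its neighbour on chromosome 1, COR47 (AT1G20440), another dehydrin gene, had 101, 110 and 85.1 CPM in HO-MSU plants and 48.5 to 63.3 elsewhere. Both rose with MSU, by 1.61 and 0.96, and had no called change with Malaka (0.17 and 0.05). Their interactions were 1.44 (standard error 0.18, adjusted p = 5.76e-05 from edgeR) and 0.91 (standard error 0.14, adjusted p = 0.000545 from edgeR). SRC2, named after a cold-regulated soybean gene and chosen after its values were seen, had 61.0 to 71.5 CPM in HO-MSU plants, above all other libraries (35.6 to 58.4), while its AX-MSU libraries were low enough for that group to lie farthest from the rest. AT1G11960, of the early-responsive to dehydration family and likewise chosen after its values were seen, had 13.3 to 14.3 CPM in HO-MSU plants and 2.49 to 9.97 elsewhere, with an interaction of 1.31 (adjusted p = 0.0406 from edgeR).
The promoter of ERD7, the gene with the largest positive interaction, is printed for its stress elements. It is chr2:7757930-7758179 on the minus strand of TAIR10.1, with the C-repeat core CCGAC, which cold-induced CBF factors bind, and the ABRE core ACGTGG, which factors of abscisic acid signalling bind, in capitals on either strand.
ERD7: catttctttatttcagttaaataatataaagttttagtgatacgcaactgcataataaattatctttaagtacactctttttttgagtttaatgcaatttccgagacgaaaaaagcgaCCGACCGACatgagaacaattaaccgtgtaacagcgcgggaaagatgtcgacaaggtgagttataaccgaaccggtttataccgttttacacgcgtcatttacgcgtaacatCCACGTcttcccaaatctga
The C-repeat core was found there at 2 adjoining places and the ABRE core at 1. Neither element was found in the 250 bases before ERD10, COR47, SRC2 or AT1G11960, so they are not a shared trait of these genes. Over the promoters of the 49 genes, the C-repeat core occurred in 14.3% against 11.9% of the 28931 nuclear genes with coordinates. The ABRE core occurred in 10.2% against 8.05%, and the W-box in 28.6% against 28.4%. The G-box CACGTG, which can overlap the ABRE core, occurred in 10.2% against 6.34%, and the P1BS element of phosphate starvation (GNATATNC) in 8.16% against 5.44%. The CCA1-binding site AAAAATCT occurred in 6.12% against 6.53%, and the evening element AAAATATCT in none of the 49 against 2.35%. These shares describe 250 bases and both strands only.
Of 15 listed cold and dehydration genes 7 were tested, since the CBF genes and others had too few counts, and of these ERD10 and COR47 were called. At 6 of the 7 the interaction was positive, with a median of 0.91 beside -0.01 over all genes. The median response was 0.79 with MSU and -0.16 with Malaka. HO-MSU lay apart at 5 of the 7, beside 29% of all genes tested. LTI78 (also RD29A), a cold and desiccation marker, had a mean of 13.5 CPM in HO-MSU plants and 7.54 to 8.43 in the other groups, and an interaction of 0.95 that did not pass (adjusted p = 0.0684 from edgeR). RAB18, a dehydrin gene of abscisic acid signalling, went the other way. Its means were 2.52 CPM in HO-MSU and 3.35 in HO-Malaka plants against 7.36 and 8.26 in the axenic groups, it fell with both communities, and its interaction was -0.25 (adjusted p = 0.886 from edgeR). None of 14 abscisic acid genes tested had an interaction, beside 0.279% of all genes tested. With libraries scaled by total counts COR47 lost its call (0.81, adjusted p = 0.268 from edgeR), while the median of the cold list was 0.81.

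A gene of sulfate assimilation was low in HO-MSU plants, and the estimates for aliphatic glucosinolate genes were negative without passing the test. APR1 (AT4G04610), an APS reductase at a controlling step of sulfate assimilation, had 15.9, 19.5 and 13.3 CPM in HO-MSU plants. It had 34.0, 31.8 and 25.1 CPM in AX-Malaka, 26, 29.1 and 29.7 in HO-Malaka and 30.5, 29.8 and 32.6 in AX-MSU plants, so that the HO-MSU libraries lay below all others. It fell with MSU (-0.91) and had no called change with Malaka (-0.11), an interaction of -0.80 ± 0.17 (SE, edgeR adjusted p = 0.0390). The other APS reductases had the same order of responses without a called interaction. APR2 fell with MSU (-0.82) and less with Malaka (-0.39), and APR3 fell with MSU (-0.76). Their interactions were -0.43 and -0.51, with adjusted p of 0.302 and 0.160 from edgeR. Of 15 listed genes of sulfur deficiency 11 were tested, APR1 alone was called and 9 had a negative interaction, with a median of -0.36. HO-MSU lay apart at 7 of the 11, beside 29% of all genes tested. Without HO-Malaka replicate 2 the median of the list was -0.16, and without replicate 1 of HO-MSU it was -0.23. APR1 lost its call without 8 of the 12 libraries taken 1 at a time, with interactions then between -0.69 and -0.83.
Aliphatic glucosinolates are sulfur-containing defence compounds made from methionine. None of the 18 genes of the pathway that were tested, of 19 listed, had an interaction, the smallest adjusted p being 0.196 from edgeR, and all 18 estimates were negative. When replicate 1 of HO-Malaka was left out, 3 of the 18 were called and the median was -0.58, and 3 were also called with no filter on low counts. When replicate 3 of HO-Malaka or of AX-MSU was left out, 2 of the 18 estimates were positive. With all libraries the median was -0.37, with responses of -0.47 with MSU and -0.05 with Malaka. With MSU 9 of the 18 fell and with Malaka none was called, which does not itself show that the soils differ. Over all 17588 genes tested, 577 fell with MSU and 333 with Malaka. HO-MSU lay apart at 16 of the 18, beside 29% of all genes tested. BCAT4, the aminotransferase that starts the elongation of methionine, had means of 18.6, 19.2 and 20.3 CPM in AX-Malaka, HO-Malaka and AX-MSU plants and 11.7 CPM in HO-MSU plants (interaction -0.81, adjusted p = 0.230 from edgeR). CYP79F1, which makes the aldoxime of the core pathway, had means of 35.8, 31.8, 26.9 and 15.4 CPM in the same order (interaction -0.61, adjusted p = 0.347 from edgeR). MYB29, a transcription factor of the pathway, had 9.90, 11.7, 11.4 and 7.71 CPM (interaction -0.80, adjusted p = 0.196 from edgeR). These genes share regulators and so are not independent of each other.
Among the named genes, BT5 (27.4 to 31.2 CPM in HO-MSU plants, 35.0 to 54.7 elsewhere) and AT5G21940 (16.5 to 19.5 against 22.8 to 32.6) were also low in HO-MSU plants without overlap. Their interactions were -0.81 and -0.80, with adjusted p of 0.00260 and 0.0113 from edgeR, and they share 151 and 157 bases with antisense genes. The call of AT5G21940 was lost without AX-MSU replicate 2 (-0.71) or HO-MSU replicate 2 (-0.73). NAP, a NAC transcription factor that drives leaf senescence, had 2.63, 3.3 and 2.71 CPM in HO-MSU plants and 2.83 to 7.99 elsewhere, which overlapped. It fell with MSU (-1.29) and its interaction was -1.45 (standard error 0.32, adjusted p = 0.0473 from edgeR), a call lost without 9 of the 12 libraries taken 1 at a time, at -1.15 to -1.57. NAP was the only called gene of 7 senescence genes tested. MSRB5, a methionine sulfoxide reductase (5.4 to 6.03 CPM in HO-MSU plants, 8.79 to 13.3 elsewhere), and SHM7, a serine hydroxymethyltransferase (22.9 to 25.5 against 33.2 to 39.0), were chosen after their values were seen and did not overlap with other groups either.

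**Figure D4:**
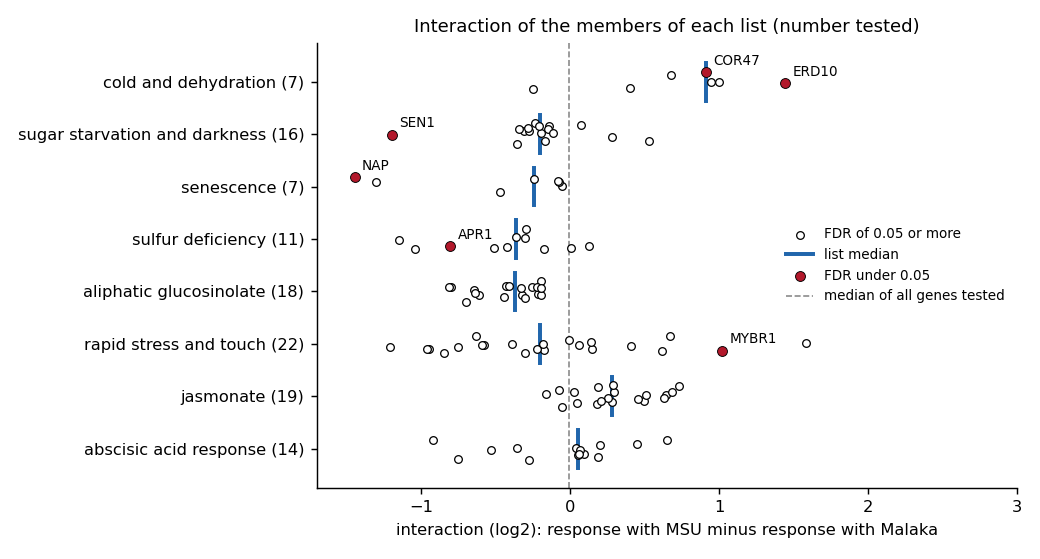
Interaction (log2, horizontal) of each tested member of 8 gene lists, with the list median as a blue bar, the median of all genes tested as a dashed line and members with an FDR under 0.05 filled and named. The cold and dehydration members lie mostly to the right and all 18 aliphatic glucosinolate members to the left of the dashed line.

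A glycine-rich protein gene and an extensin-like gene had no count in any AX-Malaka library, so that their fold change is only bounded. GRP9 (AT2G05440), the former, had 179 counts in the HO-Malaka, 435 in the AX-MSU and 402 in the HO-MSU libraries together, or 3.55, 5.92 and 3.88, 3.22, 16.9 and 9.58, and 4.89, 11.8 and 4.3 CPM. HO-Malaka plants were at least 54.4-fold higher than AX-Malaka plants, when the group as a whole is set to 3 counts, whereas HO-MSU plants were at 0.807 times the level of AX-MSU plants. With the ratio for MSU taken as measured, the ratio between these responses was at least 67.5 (adjusted p = 0.000612 from edgeR). Of the 50-base windows of GRP9, 7.31% occur elsewhere in the genome. GRP9 is also the only gene called when a difference of at least 1 was tested inside the model (glmTreat of edgeR, adjusted p = 0.0260). AT3G28550, of the proline-rich extensins, had 140 counts in HO-Malaka, 25 in AX-MSU and 17 in HO-MSU plants. All 17 came from HO-MSU replicate 2. Its HO-Malaka libraries varied between 0.188, 2.50 and 6.70 CPM, and 24.1% of its windows are repeated. Its call (adjusted p = 0.0406 from edgeR) was lost without 8 of the 12 libraries taken 1 at a time. Both calls were also lost with limma-voom. AT2G05510, another glycine-rich protein gene that was chosen after its values were seen, had only 4, 35, 56 and 5 counts in AX-Malaka, HO-Malaka, AX-MSU and HO-MSU plants, and 39 of the 56 came from 1 library.

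Whether the response of the immune genes that the study names depends on soil could not be decided. Of 15 such genes 12 were tested and none had an interaction, the smallest adjusted p being 0.725 from edgeR. They were selected from these same libraries, and 9 of them had 3 counts or fewer in a group, so that no median is given. Of the genes of salicylate and N-hydroxypipecolate (11 tested), indole glucosinolate and camalexin (13), jasmonate (19), phosphate starvation (12), iron deficiency (6), nitrate (13), the WRKY family (36) and the cysteine-rich receptor-like kinases (26), none was called either. Only 0.279% of all genes tested were called. No call is therefore the usual outcome for lists of this size and shows no lack of soil dependence. The jasmonate list had 16 of 19 positive estimates and a median of 0.28, or 0.18 without replicate 1 of HO-Malaka and 0.16 with total counts. Its wound-induced lipoxygenase LOX2 had means of 141 CPM in AX-Malaka plants and 83.6 to 88.0 in the other groups, an interaction of 0.63 (adjusted p = 0.128 from edgeR). All 8 cytokinin response genes tested had negative estimates, with a median of -0.53 and none called, but with replicate 1 of HO-Malaka left out 2 of 7 were positive and the median was -0.26. Among 22 genes of rapid stress and touch, MYBR1 alone was called and the median was -0.20, which ranged from -0.36 without replicate 1 of AX-Malaka to -0.08 without replicate 1 of AX-MSU. Without HO-Malaka replicate 2, 5 members of the stress list were called, WRKY18 (1.4) and MYBR1 (0.98) positive and WRKY33 (-0.91), CZF1 (-1.0) and ERF4 (-0.97) negative. LOX2 (0.73), the jasmonate regulator MYC2 (0.89) and CYP83B1 of the indole glucosinolate pathway (0.75) were then called positive too. The 133 chloroplast genes and 138 mitochondrial genes tested had none called and medians of -0.04 and 0.12.

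The number of interaction genes rested on single libraries. Leaving out replicates 1, 2 and 3 of AX-MSU in turn gave 30, 15 and 43 genes. The same gave 33, 27 and 19 for AX-Malaka, 21, 31 and 26 for HO-MSU, and 40, 191 and 28 for HO-Malaka. The 49 genes kept the sign of their interaction in every one of these fits. They were chosen with all libraries, most of which each fit reuses, so nothing is read from this. Of the 25 genes named by rule, 15 kept their call whichever library was left out: AT3G19680, AT2G47440, ERD7, ERD10, AT2G27080, EXL5, SEN1, EXO, COR47, GRP9, MYBR1, PATL2, BT5, IP5PII and AT1G75490. Of these 15, COR47, MYBR1, PATL2, BT5 and IP5PII lost their call when libraries were scaled by total counts, with adjusted p of 0.268, 0.212, 0.353, 0.138 and 0.212 from edgeR, and GRP9 lost it with limma-voom, so that 9 genes kept their call under every alternative.

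**Figure D5:**
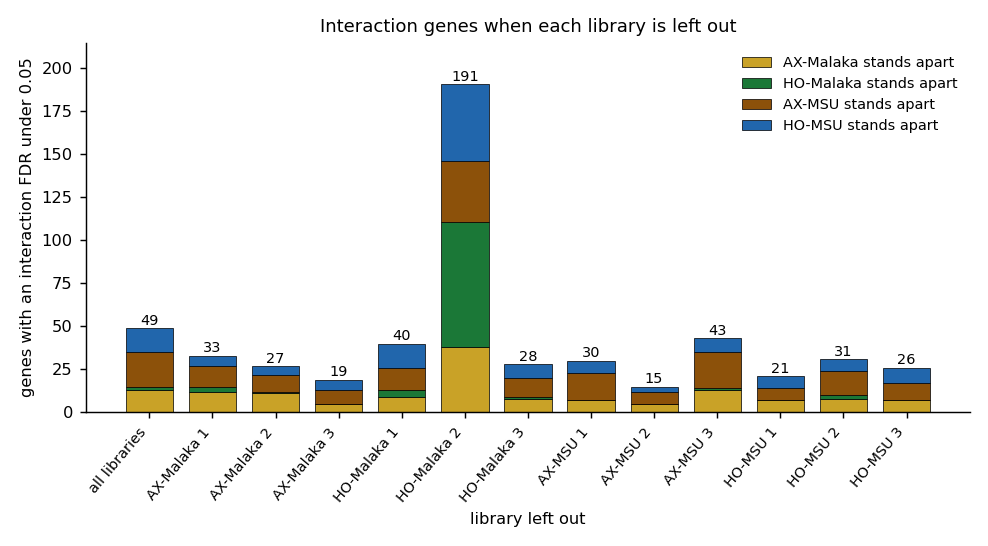
Number of genes with an interaction FDR under 0.05 with all 12 libraries and with each library left out, coloured by the group that lay apart at each gene. The count is 49 with all libraries, 15 to 43 without 11 of them and 191 without HO-Malaka replicate 2, where HO-Malaka lies apart at 73.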

How the data were processed

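RNA was sequenced from rosettes of 12 pools. The deposited table holds raw counts per gene, made by the authors with Trimmomatic 0.39, STAR, featureCounts and the TAIR10 genome. Groups came from the sample labels. Counts were analysed with edgeR 4.0.16 (R 4.3.3): genes were filtered with filterByExpr (minimum count 10, minimum total 15), scaled by TMM and fitted with a quasi-likelihood model of 4 group means. The contrasts were the interaction, the response with each soil and the soil difference in AX and in HO plants, with Benjamini-Hochberg adjustment over all 17588 genes tested. Levels are CPM after TMM, and group positions used log2 CPM with a prior count of 2. Alternatives were DESeq2 1.42.0, limma-voom (limma 3.58.1), other scalings and filters, a replicate block and leaving out each library. The counting strand is not given in the sources used here, so overlapping genes cannot be separated: 11 of the 49 genes overlap another gene on the other strand and 3 on their own. Ribosomal RNA and organelle genes were kept. The 25 genes named by rule were the 12 called genes of smallest p in each direction and every called member of a list. Others are said to be chosen after their values were seen. The members and gene lists were chosen with earlier results of these data known. The procedure was tested on simulated counts. The differences put into them were larger than most interactions called here, so that test does not bear on the calls above. Promoters were read from the RefSeq genome TAIR10.1, 250 bases before each gene.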

Additional observations from a re-analysis of the deposited data

Results flagged for a closer look

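These genes drew attention because the effect of the live community differed between the soils by a test of the difference itself, the interaction in edgeR with an FDR under 0.05. Each value is the log2 response with MSU minus that with Malaka, and the explanations for these differences were not tested. Where AX-Malaka lay apart as the high group, the interaction was 1.28 for AT2G47440, 1.29 for EXL5, 1.46 for EXO, 0.87 for PATL2, 0.78 for AT1G61100, 0.76 for AGP17, 0.67 for AT3G61198, 1.37 for AT5G25240, 1.13 for LGT8 and 1.28 for ULT1. Where AX-Malaka lay apart as the low group, the interaction was -0.79 for AT5G57655 and -1.47 for AT3G16530. Where AX-MSU lay apart as the high group, the interaction was -1.20 for SEN1, -2.08 for AT1G75490, -0.73 for AT5G22920, -0.66 for J11, -0.82 for BT1, -0.68 for NAC083, -0.66 for ATCTH, -0.75 for AT4G27450, -0.66 for FDH, -0.96 for AT5G12050, -6.47 for AT2G05510 and -0.72 for AT3G15450. Where AX-MSU lay apart as the low group, the interaction was 1.89 for AT3G19680, 1.78 for AT2G27080, 1.02 for MYBR1, 1.06 for IP5PII, 0.76 for SRC2, 0.87 for BME3, 0.86 for SOBIR1 and 0.94 for LGT9. Where HO-MSU lay apart as the high group, the interaction was 2.23 for ERD7, 1.44 for ERD10, 0.91 for COR47, 0.66 for BIM1, 1.46 for AT1G56660, 1.31 for AT1G11960 and 1.34 for AT2G43375. Where HO-MSU lay apart as the low group, the interaction was -0.81 for BT5, -0.80 for AT5G21940, -0.80 for APR1, -1.45 for NAP, -0.58 for SHM7, -2.35 for AT2G43120 and -0.97 for MSRB5. Where HO-Malaka lay apart as the low group, the interaction was 0.91 for AT2G46192. For GRP9 and AT3G28550, with no count in AX-Malaka plants, the ratio of the response with Malaka to that with MSU was at least 67.5 and at least 71.7. These bounds take the HO over AX ratios with MSU, 0.807 and 0.594, as measured. For AT3G28550 that ratio rests on 17 HO-MSU counts from 1 library, so its bound is not firm. AT2G05510 rests on few counts, and its fitted value depends on the prior count.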

How the results depend on the processing

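The direction of the interaction was the same for the 25 genes named by rule under every alternative run, which their choice from these same libraries favours. Of these genes 15 kept their call whichever library was left out, 9 also under every other alternative. With total counts 14 of the 25 lost their call (adjusted p from 0.110 to 0.442), and with limma-voom GRP9, AT3G28550, BT1, APR1 and NAP did. However, the counts of calls moved widely. The interaction was called at 49 genes with TMM, at 57 with DESeq2 (45 shared), at 14 with total counts, which moved the median of all genes to -0.13, at 181 with no filter on low counts and at 24 with limma-voom. It was called at 23 genes with an estimated difference of at least 1 and at 1 when that difference was tested inside the model. The soil difference in AX plants was called at 23 genes with total counts and 258 with no filter, and that in HO plants at 17, 189 and, with DESeq2, 85. The response with Malaka was called at 376 genes with total counts. AX-MSU lay apart at 5 interaction genes with total counts, 52 with no filter and 12 with limma-voom. With total counts the distance between AX-Malaka and AX-MSU was 1.00 times that within groups. Over the 500 most variable genes it was 1.11 times, and between HO and AX plants 1.81 times with Malaka and 1.74 times with MSU. Leaving out 1 library at a time gave 15 to 191 interaction genes, 644 to 1428 for the response with MSU, 480 to 941 with Malaka, 25 to 190 for the soil difference in AX plants, 16 to 223 in HO plants and 7 to 35 genes where AX-MSU lay apart. The cause of these shifts was not tested.
Whether the replicate numbers pair the samples is not settled by these values. Correlations of the deviations of same-numbered libraries lay between -0.03 and 0.19, and not every library correlated best with those of its own number. However, replicate 1 had the lowest ribosomal RNA share of its group in every group. This share was 13.1% in AX-Malaka, 9.88% in HO-Malaka, 11.1% in AX-MSU and 14.7% in HO-MSU. Its organelle share was the highest of each group, and a batch shared by number was not tested. With the number as a replicate block, 104 genes had an interaction, AX-MSU lay apart at 37, and the soil difference was called at 192 genes in AX and 116 in HO plants.
With 3 libraries a group, small differences are not detectable at this depth, and genes under the filter were not tested.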
